A study of Mus musculus with 40 samples.

Results

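The transcripts of 10 genes that carry hepatocyte growth factor (HGF) and epidermal growth factor (EGF) signals were followed in whole liver of mice that lack Nampt in hepatocytes (HNKO) and of WT littermates. They were chosen by gene symbol from the 55487 genes of the count table and comprise Hgf and its receptor Met, the EGF family receptors Egfr, Erbb2, and Erbb3, and the EGF family ligands Areg, Ereg, Hbegf, Tgfa, and Btc. Nampt encodes the enzyme that makes NAD+ from nicotinamide. HNKO mice were Nampt fl/fl and Alb-Cre+/-, and the WT mice were floxed littermates. The albumin promoter drives Cre in hepatocytes, and whether all other liver cells keep the gene was not tested here. All mice were female, on the C57BL/6JBomTac background, and had eaten a purified diet (PD) for a time of 3, 6, 12, or 21 days. The labels give these days as age, and the study's methods give them as days of feeding that began at 9 weeks of age. The RNA-Seq libraries used were 38 of 40, with 5, 4, 5, and 5 WT and 5, 5, 6, and 3 HNKO libraries at the 4 days. The other 2 libraries, both HNKO at day 21, are described in the labels as failing quality control and were left out.

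HGF is secreted as an inactive precursor, mainly by stellate and other nonparenchymal cells of the liver, and is cleaved by serine proteases before it can activate MET on hepatocytes. The EGF family ligands are made as membrane-bound precursors that are released by proteases and bind EGFR, which pairs with ERBB2 and ERBB3; ERBB2 has no known ligand of its own, and ERBB3 has little kinase activity. Both routes drive the entry of hepatocytes into the cell cycle after tissue loss, and loss of either receptor in hepatocytes slows regeneration of the liver.

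To show the DNA in front of the genes that the results turn on, the 250 bases before the transcription start of Hgf, Egfr, Areg, and Btc are given in the 5′ to 3′ direction of each gene (RefSeq, GRCm38.p6). The window of Hgf is that of the more upstream of its 2 listed starts. Capitals mark a match, on either strand, to any of 5 motifs. They are the GC box, spelled GGGCGG. The TATA box is spelled TATAAA. The motif of AP-1, a factor of early response genes, is spelled TGANTCA. The cAMP response element is spelled TGACGTCA and the E-box, the site of the clock factors, CACGTG. No motifs overlapped in the windows shown.
Hgf, chr5:16553245-16553494, plus strand: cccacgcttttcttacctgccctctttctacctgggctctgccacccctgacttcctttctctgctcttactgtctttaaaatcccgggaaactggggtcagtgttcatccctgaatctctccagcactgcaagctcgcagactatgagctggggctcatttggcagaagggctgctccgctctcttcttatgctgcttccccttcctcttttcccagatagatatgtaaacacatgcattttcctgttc
Egfr, chr11:16751953-16752202, plus strand: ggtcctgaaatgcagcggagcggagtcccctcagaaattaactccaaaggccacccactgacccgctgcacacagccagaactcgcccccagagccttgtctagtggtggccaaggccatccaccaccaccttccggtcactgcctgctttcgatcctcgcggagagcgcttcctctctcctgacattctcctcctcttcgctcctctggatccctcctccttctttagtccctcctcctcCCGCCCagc
Areg, chr5:91139349-91139598, plus strand: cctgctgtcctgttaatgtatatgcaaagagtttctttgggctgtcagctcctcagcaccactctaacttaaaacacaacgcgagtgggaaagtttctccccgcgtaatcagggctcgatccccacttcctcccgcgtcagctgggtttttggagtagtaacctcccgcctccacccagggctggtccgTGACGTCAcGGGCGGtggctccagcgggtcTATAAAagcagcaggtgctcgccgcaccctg
Btc, chr5:91402995-91403244, minus strand: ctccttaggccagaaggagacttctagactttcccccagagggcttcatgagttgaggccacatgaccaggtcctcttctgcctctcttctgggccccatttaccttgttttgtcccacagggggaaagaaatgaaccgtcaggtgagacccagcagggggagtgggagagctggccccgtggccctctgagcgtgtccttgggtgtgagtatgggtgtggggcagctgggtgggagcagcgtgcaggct
The Areg window held 1 TATA box, 1 cAMP response element, and 1 GC box, and the Egfr window held 1 GC box. No match was found in the Hgf and Btc windows, which says only that these letters do not occur there. Among all 32851 promoter windows of this length, 32.7% held a GC box, 12.4% a TATA box, 6.75% an AP-1 motif, 1.55% a cAMP response element, and 6.02% an E-box. A window was listed for 7 of the 10 genes. In the windows that are not shown, Met had 3 GC boxes, 1 AP-1 motif, and 1 E-box, Tgfa had 2 GC boxes, and Erbb2 had no match.

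The libraries held 16151037 to 64181492 counts (median 26466479). Nampt itself was lower in HNKO by 0.93, 0.90, 0.82, and 0.69 on the log2 scale at days 3, 6, 12, and 21, and was called at the first 3 of these days. Here and below, a gene is called when its adjusted p (edgeR quasi-likelihood test, Benjamini-Hochberg over the 20297 genes tested) is under 0.05. Markers of cholangiocytes and of myofibroblasts and matrix were called most often, and those of other cells less often or not at all. Of all genes tested, 2.95%, 8.42%, 4.56%, and 2.21% were called higher at days 3, 6, 12, and 21. The shares called lower were 1.71%, 4.37%, 3.27%, and 0.916%. The summed level of 8 cholangiocyte markers was 34.9 to 50.1 CPM (counts scaled to the size of the library) in WT and 110 to 765 CPM in HNKO, with 7, 7, 6, and 5 of 8 called higher at the 4 days, and none of the 8 was at 0 in the median library. Of 6 myofibroblast and matrix markers, 3, 5, 3, and 5 were called higher. Of 6 stellate cell markers, 1 was called higher at each of days 3, 6, and 12, none at day 21, and 1 was called lower at day 12. Of 7 hepatocyte markers, 2 were called lower at day 6 and none at the other days, and their sum at day 6 was 56059 to 101024 CPM in HNKO against 115863 to 132371 CPM in WT. Among other leukocyte markers, 0, 4, 2, and 0 of 6 were called higher, as were 0, 2, 0, and 0 of 7 macrophage markers and 0, 1, 0, and 2 of 5 proliferation markers. Of 8 endothelial markers, 0, 2, 2, and 0 were called lower, and of 3 mesothelial markers none was called. In RNA from whole tissue, fewer cells of a type and less RNA per cell cannot be told apart, and the part of these markers in the results below was not tested. Of the libraries used, HNKO library 29 (day 6) had the highest cholangiocyte sum, at 765 CPM, and the lowest hepatocyte sum, at 56059 CPM, and HNKO library 37 had the highest cholangiocyte sum of day 21, at 493 CPM. Calls of the 9 tested genes that were lost without these libraries are given with and without them, and the calls of the pathway lists are given as counts without them.

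In the mean of the 4 day differences, 6 of the 9 genes that passed the filter on low counts rose in HNKO (Hgf, Egfr, Erbb2, Ereg, Hbegf, and Btc) and 2 fell (Met and Erbb3). Tgfa was not called (mean log2 difference 0.09, SE 0.06, adjusted p = 0.250), and Areg did not pass the filter. The test of the mean called 36.4% of all genes tested, 19.2% as higher and 17.3% as lower, so that calls were frequent across the whole transcriptome. The median log2 fold change of the 9 genes was 0.48, beside -0.01 for all genes tested. At single days the calls were fewer, with 1 gene at day 3 (4.66% of all genes tested), 3 genes at day 6 (12.8%), 2 genes at day 12 (7.82%), and 3 genes at day 21 (3.12%). The only call of a lower level at a single day was that of Erbb3 at day 3. Hgf, Egfr, and Hbegf were each called at 2 days (6.39% of all genes tested were called at 2 or more), Erbb2, Erbb3, and Ereg at 1 day, and Met, Tgfa, and Btc at none. The groups did not overlap for 0 of 9 genes at days 3 and 6 (4.11% and 12.8% of all genes tested), 1 at day 12 (4.79%), and 4 at day 21 (13.9%).

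**Figure D1:**
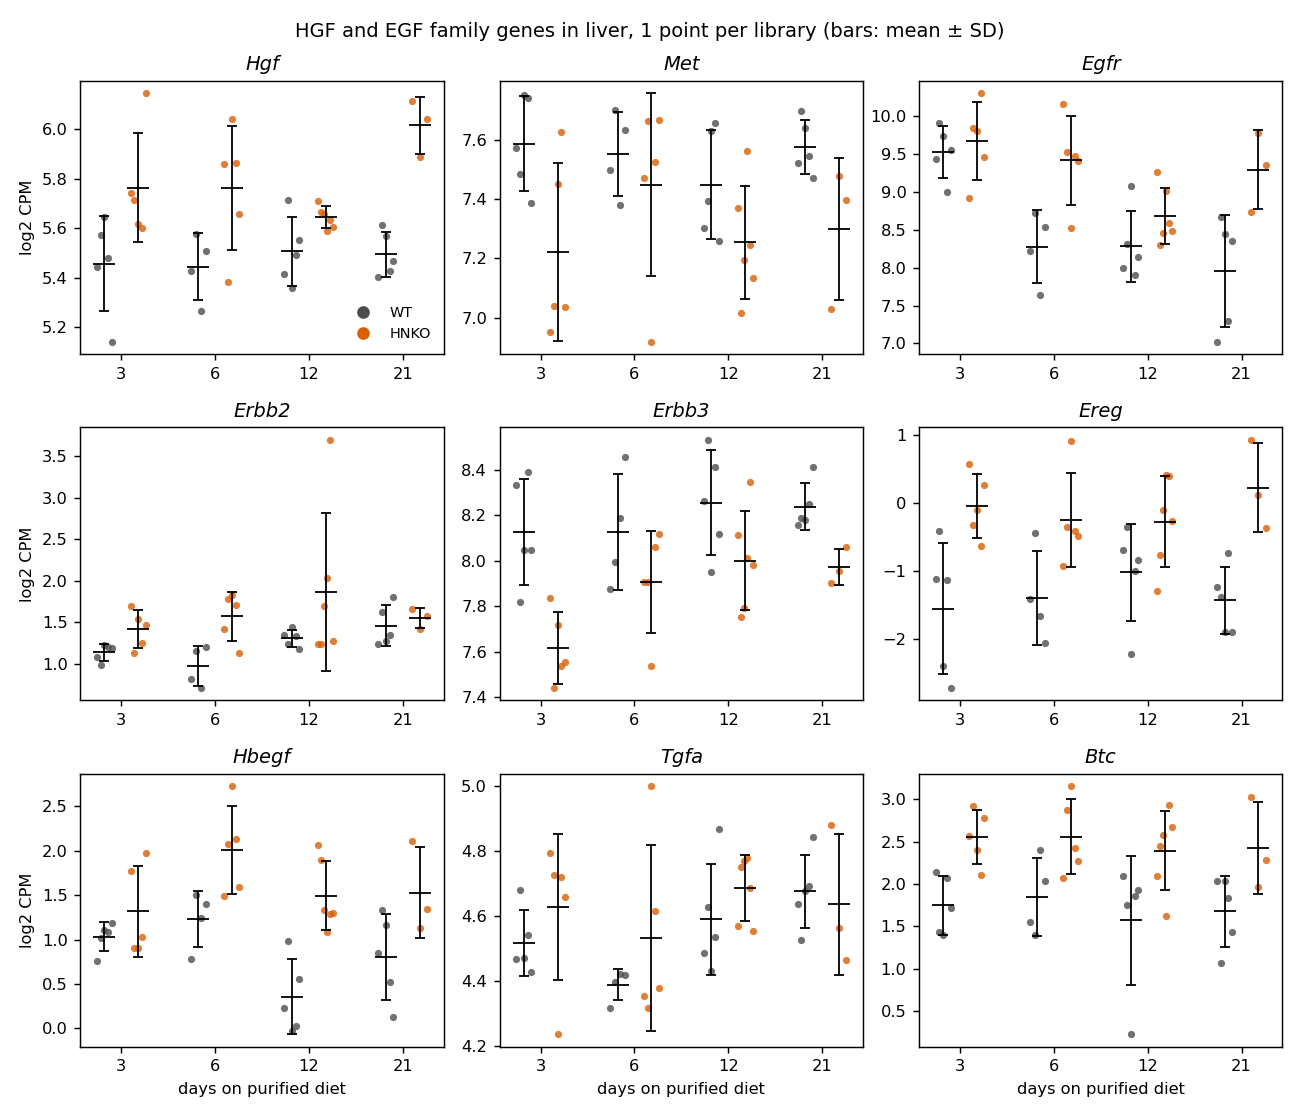
Normalized level (log2 CPM, y axis) of the 9 genes that passed the filter, against days on PD (x axis); each point is 1 library (WT gray, HNKO orange) and bars are mean ± SD. Hgf at day 21 lies at 5.89 to 6.11 in the HNKO libraries and at 5.40 to 5.61 in WT, whereas Tgfa overlaps at every day.

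Hgf, the ligand of MET, was 1.25-fold higher in HNKO in the mean of the 4 days (log2 fold change 0.32, SE 0.05, adjusted p = 1.55e-05). At day 21, it stood at 5.40, 5.61, 5.57, 5.43, and 5.47 log2 CPM in WT and at 6.11, 5.89, and 6.04 log2 CPM in HNKO. Every HNKO library lay above every WT library at that day, as was so for 4 of the 9 genes in either direction (Hgf, Egfr, Erbb3, and Ereg) and for 13.9% of all genes tested. The fold change was 0.52 (log2, SE 0.12, adjusted p = 0.0127). The difference of day 6 was 0.33 on the log2 scale (SE 0.11, adjusted p = 0.0427), with groups that overlapped because 1 HNKO library, at 5.38 log2 CPM, lay among the WT libraries at 5.27 to 5.58. At days 3 and 12 the differences of 0.31 (adjusted p = 0.0687) and 0.13 (adjusted p = 0.429) were not called. Day 3 was called without HNKO library 4 (0.35, adjusted p = 0.0437) or 22 (0.34, adjusted p = 0.0400). It was 0.21 (adjusted p = 0.267) without HNKO library 23 and 0.24 (adjusted p = 0.175) without WT library 26. The HNKO libraries of day 12 were narrowly spread, from 5.59 to 5.71 log2 CPM, and within the WT range of 5.36 to 5.71. The call at day 6 was lost in 6 of the 9 fits that left out 1 library of that day (WT libraries 8, 27, and 28 and HNKO libraries 6, 29, and 30; adjusted p of 0.0597 to 0.150, with 0.27 and 0.150 without library 29). It was also lost with no filter on low counts (adjusted p = 0.0650), with all 40 libraries (0.250), and with only the 2 groups of the day (0.135). The call at day 21 was lost without library 37 (0.49, adjusted p = 0.218), the only such library of the 8, and with all 40 libraries (0.29, adjusted p = 0.226). The mean difference over the days was 0.32 without either of them. Of the 51-base windows in the exons of Hgf, 6% also occur in another gene, and 484 exon bases are shared with Gm43489 on the same strand, which had a median of 29 counts where Hgf had 1269.

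Met encodes the receptor tyrosine kinase for HGF and moved in the other direction. It fell by 0.22 on the log2 scale in the mean of the 4 days (SE 0.07, adjusted p = 0.0111), and it was not called at any single day, with log2 fold changes of -0.35, -0.08, -0.19, and -0.26, except that day 3 was called without HNKO library 22 (-0.47, adjusted p = 0.0275). At day 3, WT libraries stood at 7.57, 7.48, 7.75, 7.74, and 7.39 log2 CPM and HNKO libraries at 6.95, 7.04, 7.45, 7.63, and 7.04 log2 CPM. Here 3 HNKO libraries lay below the WT range and 2 within it. Without library 37 the mean difference was -0.18 and was no longer called (adjusted p = 0.0565), and that of day 21 was -0.12. Without library 29 the value of day 6 turned to 0.047, and the mean stayed called (-0.18, adjusted p = 0.0252).

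Egfr, the receptor for EGF, amphiregulin, and TGF-α, was higher in HNKO in the mean of the 4 days (log2 fold change 0.74, SE 0.16, adjusted p = 3.44e-04) and was called at 2 of them. It was 2.26-fold higher in HNKO at day 6 (log2 fold change 1.17, SE 0.33, adjusted p = 0.0160) and 2.39-fold higher at day 21 (1.26, SE 0.34, adjusted p = 0.0352). At days 3 and 12 the differences were 0.18 (adjusted p = 0.792) and 0.37 (adjusted p = 0.457), the latter between 0.24 (without HNKO library 11) and 0.63 (without WT library 16). At day 21, the WT libraries stood at 7.03, 8.66, 8.44, 7.30, and 8.36 log2 CPM and the HNKO libraries at 8.74, 9.78, and 9.36 log2 CPM. All HNKO libraries lay above all WT libraries, the lowest of them close to the highest WT library. At day 6, WT stood at 8.21, 8.72, 7.64, and 8.54 log2 CPM and HNKO at 10.16, 9.53, 8.52, 9.47, and 9.41 log2 CPM. Library 29 was the HNKO library within the WT range, and without it the fold change was 1.36 (adjusted p = 0.00948). The call was lost without WT library 8 (1.14, adjusted p = 0.0509) or WT library 27 (0.9997, adjusted p = 0.0647). The call at day 21 was lost without library 37 (1.505, adjusted p = 0.119) and without 5 of the other 7 libraries of that day, left out 1 at a time, with log2 fold changes of 1.01 to 1.505 over all 8. It was lost as well with only the 2 groups of the day (adjusted p = 0.0833).

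Egfr was also the only gene of the 9 called for a difference between days in WT (adjusted p = 0.00289 for the test over the 4 days, which called 5.84% of all genes tested). Its WT mean was 9.53 ± 0.35 log2 CPM (SD, n = 5), 8.28 ± 0.48 (n = 4), 8.28 ± 0.47 (n = 5), and 7.96 ± 0.74 (n = 5) in the order of the days. The HNKO means were 9.66 ± 0.51 (n = 5), 9.42 ± 0.58 (n = 5), 8.68 ± 0.37 (n = 6), and 9.29 ± 0.52 (n = 3). In HNKO the test over days did not call it (adjusted p = 0.0878), nor any other of the 9, where 7.9% of all genes tested were called. With a score of clock genes in the fit (described further on, and chosen after the data were seen), Egfr (adjusted p = 0.00549) and Erbb3 (adjusted p = 0.0266) were called over days in HNKO, as were 16.5% of all genes tested. Whether the genotype difference varied with day was tested directly by the interaction. By edgeR's test of this interaction, none of the genes followed was called, and 0% of all genes tested were. Egfr alone among them passed at an unadjusted p under 0.05 (edgeR adjusted p = 0.9998), as did 966 genes (4.76%) in all.

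**Figure D2:**
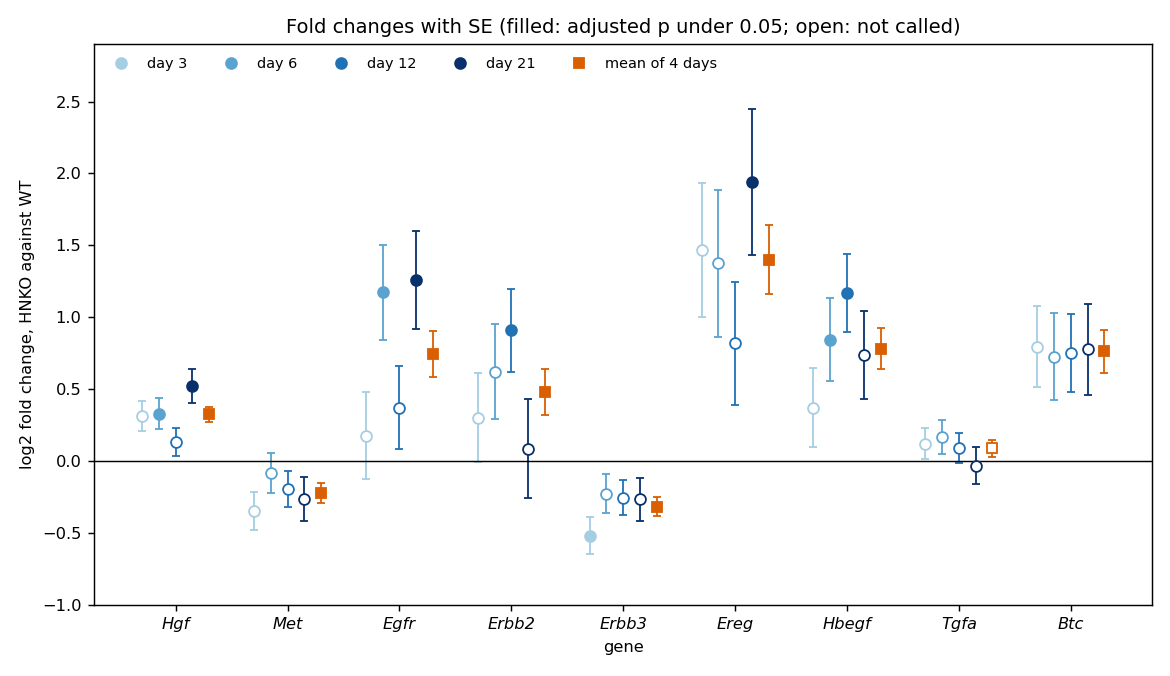
Log2 fold change of HNKO against WT (y axis) for each gene (x axis) at each day and in the mean of the 4 days, with SE; filled symbols are called. The means lie between -0.32 for Erbb3 and 1.40 for Ereg, and the 4 values of Btc lie between 0.73 and 0.79.

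Erbb2 and Erbb3, the partner receptors of EGFR, went in opposite directions. Erbb3 fell by 0.32 on the log2 scale in the mean of the 4 days (SE 0.07, adjusted p = 3.21e-04). At day 3, it stood at 8.33, 7.82, 8.05, 8.39, and 8.05 log2 CPM in WT and at 7.84, 7.44, 7.72, 7.53, and 7.56 log2 CPM in HNKO. Only the highest HNKO library reached the WT range, and the difference was -0.52 on the log2 scale (SE 0.13, adjusted p = 0.0175). This call was lost without HNKO library 3 or 23 or WT library 25, with adjusted p of 0.0546 to 0.0662, and with only the 2 groups of the day (-0.51, adjusted p = 0.0545). At days 6, 12, and 21 the log2 fold changes were -0.23, -0.26, and -0.27, and were not called, although at day 21 all HNKO libraries (7.90, 7.96, and 8.06 log2 CPM) lay below all WT libraries (8.16 to 8.41 log2 CPM). The value of day 6 was -0.11 without WT library 28 and -0.12 without HNKO library 29. Erbb2 was 1.39-fold higher in the mean of the 4 days (log2 fold change 0.48, SE 0.16, adjusted p = 0.0172) and was called at day 12 (0.91, SE 0.29, adjusted p = 0.0474). At that day, the WT libraries stood at 1.18 to 1.43 log2 CPM and the HNKO libraries at 1.24, 1.24, 1.27, 1.70, 2.03, and 3.69 log2 CPM. The highest value was that of library 35, which held 402 counts of Erbb2 against 44 to 112 counts in the other HNKO libraries of that day. Without it the fold change at day 12 was 0.25 (adjusted p = 0.355), and the mean over the days was 0.33 (adjusted p = 0.00299). The call at day 12 was lost without any 1 of the 5 WT libraries too (0.88 to 0.95, adjusted p of 0.0644 to 0.0938), that is, in 6 of 11 such fits. It did not hold with no filter (adjusted p = 0.0659), with the run of library numbers as covariate (0.0588), with all 40 libraries (0.134), or with only the 2 groups of the day (0.234). The exons of Erbb2 share 9 bases with Mien1 on the other strand, and Mien1 had a median of 394 counts where Erbb2 had 65. The sources used here do not give the strand setting of the counting, so reads over these bases cannot be assigned.

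Ereg encodes epiregulin and had the largest fold change of the 9 genes in the mean of the 4 days, at 2.64-fold (log2 fold change 1.40, SE 0.24, adjusted p = 2.39e-05). Its counts were low, from 2 to 78 per library (median 14.5). At day 21, WT libraries held 9, 8, 13, 12, and 5 counts, or -1.90 to -0.73 log2 CPM, and HNKO libraries held 56, 23, and 23 counts, or -0.36 to 0.93 log2 CPM. The groups did not overlap, and they differed by 1.94 on the log2 scale (SE 0.51, adjusted p = 0.0295). At days 3, 6, and 12 it was 1.47 (adjusted p = 0.0593), 1.37 (adjusted p = 0.0706), and 0.82 (adjusted p = 0.236), and each of these groups overlapped. Day 3 was called by DESeq2 (1.47, adjusted p = 0.0329) and without WT library 5 or HNKO library 22 (1.85 and 1.597). Day 6 was called without WT library 10 or HNKO library 6 (1.88 and 1.53), and was 0.90 (adjusted p = 0.359) without library 29. The call at day 21 was lost in 5 of the 8 fits that left out 1 library of that day. Without HNKO library 37 the fold change was 1.48 (adjusted p = 0.462), and without WT library 19, 20, 21, or 41 it was 1.77 to 1.99 (adjusted p of 0.0553 to 0.0785). With all 40 libraries it was 1.61 (adjusted p = 0.0658).

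Hbegf encodes heparin-binding EGF-like growth factor, which binds EGFR and ERBB4. It was 1.72-fold higher in the mean of the 4 days (log2 fold change 0.78, SE 0.14, adjusted p = 5.62e-05). At day 12, it stood at 0.23, 0.99, -0.03, 0.02, and 0.56 log2 CPM in WT, and at 1.08 (lowest), 1.32 (median), and 2.07 log2 CPM (highest) in HNKO. No HNKO library of that day overlapped the WT libraries, and Hbegf was the 1 gene of the 9 to separate at day 12, as 4.79% of all genes tested did. The difference came to 1.17 on the log2 scale (SE 0.27, adjusted p = 0.00872), and it stayed called without any 1 of the 11 libraries of that day (adjusted p of 0.00648 to 0.0255). With all 40 libraries it was not called (1.17, adjusted p = 0.112). At day 6, the fold change of 0.84 (adjusted p = 0.0490) was called with the groups overlapping. This call was lost in 7 of the 9 fits that left out 1 library of that day (WT libraries 8, 10, 27, and 28 and HNKO libraries 7, 29, and 30; adjusted p of 0.0653 to 0.222), and the fold change was 0.63 without library 29. It was lost with no filter (adjusted p = 0.0717), with all 40 libraries (0.312), and with only the 2 groups of the day (0.0843). At days 3 and 21 it was 0.37 and 0.74, neither of them called, and it was 0.18 at day 3 without HNKO library 23 and 0.40 at day 21 without library 37 (0.17 with all 40 libraries).

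Btc encodes betacellulin, a ligand of EGFR and ERBB4, and was higher in HNKO in the mean of the 4 days. Its log2 fold changes were 0.79, 0.73, 0.75, and 0.78 at days 3, 6, 12, and 21, with adjusted p of 0.0780 to 0.174, so that no single day was called, while the mean of the 4 days was (0.76, SE 0.15, adjusted p = 1.08e-04). DESeq2 called day 12 (0.76, adjusted p = 0.0479). At day 3, WT libraries stood at 2.14, 1.44, 1.39, 2.07, and 1.71 log2 CPM and HNKO libraries at 2.57, 2.92, 2.40, 2.10, and 2.78 log2 CPM. Only the lowest HNKO library fell within the WT range. Single libraries moved the values of the days, to 0.57 at day 6 without library 29, to 0.55 at day 12 without WT library 16, and to 0.43 at day 21 without library 37 (adjusted p of 0.330, 0.186, and 0.840), and day 12 was called without HNKO library 32 (0.87, adjusted p = 0.0392). The lowest value of the series, 0.23 log2 CPM, was that of WT library 16 at day 12. Tgfa, which encodes TGF-α, a ligand that hepatocytes make themselves, stood at 4.32 to 4.87 log2 CPM in WT and at 4.23 to 4.999 in HNKO. Its log2 fold changes of 0.12, 0.17, 0.09, and -0.03 had SEs of 0.10 to 0.13, and the groups overlapped at all 4 days.

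Areg encodes amphiregulin, and was near the limit of detection in these libraries. It had 84 counts in all, with a highest count of 17, and 12 of 38 libraries held none, which allows up to 0.0854 to 0.170 CPM in those libraries (3 counts each; counting error only). The HNKO libraries held 68 counts, at least 1 in 17 of 19, and the WT libraries held 16 counts, in 9 of 19. At day 6, the WT libraries held 0, 1, 0, and 1 counts and the HNKO libraries 2, 7, 17, 5, and 5 counts, the 17 in library 29. All HNKO libraries of that day were thus above all WT libraries in counts not scaled to the size of the library, with 2 against 1 at the closest. In log2 CPM, 8.08% of all genes tested had every HNKO library above every WT library at that day. In a fit without the filter, the mean log2 fold change of Areg was 1.69 (SE 0.50, adjusted p = 0.0128), and no single day was called (day 6, adjusted p = 0.0682). The test of the mean called 6916 of the 39297 genes in that fit. A fitted fold change at such counts depends on the constants of the fit. Areg, Ereg, and Btc lie side by side on chromosome 5 (GRCm38), Ereg at chr5:91074622-91093646, Areg at chr5:91139599-91148432, and Btc at chr5:91357261-91402994.

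The level of each gene was next compared per length of exon, since a longer transcript gives more counts. In the 19 WT libraries, the means ran from 5.60 ± 0.20 log2 CPM per kb (SD) for Erbb3, 5.02 ± 0.80 for Egfr, and 4.60 ± 0.15 for Met, through 2.63 ± 0.13 for Hgf and 1.85 ± 0.15 for Tgfa, to -0.47 ± 0.49 for Btc, -1.15 ± 0.25 for Erbb2, -1.44 ± 0.47 for Hbegf, and -3.39 ± 0.71 for Ereg. Erbb3, Egfr, and Met overlapped as neighbors in this order, and so did Btc, Erbb2, and Hbegf. These means pool the 4 days, between which Egfr differed in WT, so the order of the first 3 need not hold at each day. Hgf lay below all libraries of Met, Tgfa below all of Hgf, Btc below all of Tgfa, and Ereg below all of Hbegf. In whole liver, Egfr and Erbb3 were thus the more abundant transcripts of the EGF receptors on this scale and Erbb2 the scarcest of the 3. Tgfa was more abundant than Btc, Hbegf, and Ereg, and other EGF family ligands were not compared on this scale.

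**Figure D3:**
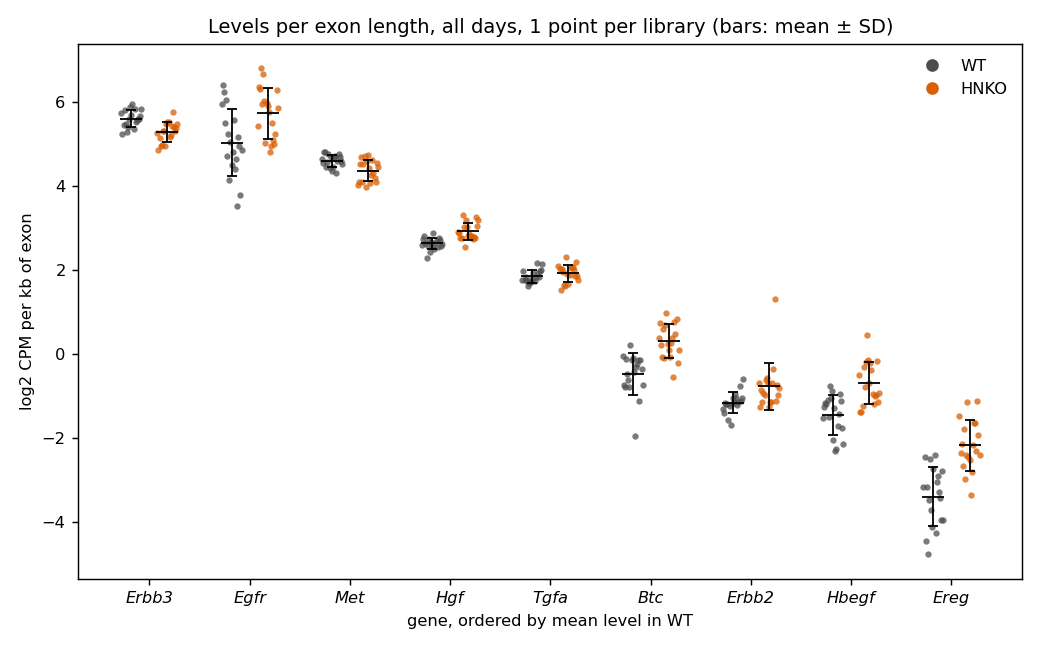
Level per length of exon (log2 CPM per kb, y axis) of each gene (x axis, ordered by the mean level in WT), 1 point per library over all days (WT gray, HNKO orange), with mean ± SD. In WT the means run from 5.60 for Erbb3 to -3.39 for Ereg, and the HNKO libraries of Ereg lie higher on average than the WT libraries.

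The libraries were numbered 1 to 21 and 22 to 41 in the labels, which do not say what the numbering means, and both genotypes occur in each run of numbers at 7 of the 8 combinations with day. Within these 7, the HNKO mean was higher in 7 of 7 for Hgf, Ereg, Hbegf, and Btc, lower in 7 of 7 for Met and Erbb3, higher in 6 of 7 for Egfr and Erbb2, and higher in 4 of 7 for Tgfa. The log2 difference ranged from 0.09 to 0.57 for Hgf, from 0.29 to 1.90 for Ereg, and from 0.39 to 1.02 for Btc.

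The 9 genes did not move together from library to library. After the mean of its group was taken from each value, 7 of the 36 pairs were correlated over the 38 libraries (adjusted p under 0.05, permutation within groups). The closest relation was between Egfr and Btc, a receptor and 1 of its ligands, which ran against each other (Pearson r = -0.72, Spearman rho = -0.72, permutation p = 2e-05 each, adjusted p = 7.2e-04). It was -0.71 without the 2 libraries that deviated most in Egfr, -0.73 within WT and -0.72 within HNKO (19 libraries each), and -0.64 and -0.81 within the 2 runs of library numbers. Thus libraries with more Egfr than others of their group had less Btc, although both genes were higher in HNKO than in WT. WT library 16, with the lowest Btc, had the highest Egfr of its group (9.08 log2 CPM). Met went with Egfr (r = 0.59) and against Btc (r = -0.56) and Tgfa (r = -0.58), Egfr went against Ereg (r = -0.47), and Hgf went with Hbegf (r = 0.52), and for these 5 pairs Spearman's rho had an adjusted p of 0.0099 to 0.0300. Without the 2 libraries farthest out in the first gene of each pair, r was 0.49, -0.51, -0.56, -0.42, and 0.54 in the same order. Some of these values changed with the genotype or with the markers taken out, and the differences between genotypes were not tested. Met with Egfr had r = 0.33 within WT and 0.80 within HNKO, and 0.27 after the summed cholangiocyte markers were taken out of both. Met with Tgfa went from -0.58 to -0.28 on the same step, and Met with Btc to -0.27 after a score of clock genes (described next) was taken out. Egfr with Ereg had r = -0.29 within WT and -0.71 within HNKO, and Hgf with Hbegf went from 0.52 to 0.34 after the cholangiocyte markers. The rho of the seventh pair, Ereg and Tgfa (r = 0.47), had an adjusted p of 0.0611, and its r was 0.34 without 2 libraries.

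Both sides of the Egfr and Btc relation correlated with a score of clock gene transcripts, which is not a measured phase. A score of Dbp, Ciart, and Per2 against Arntl and Npas2 correlated with Btc (r = -0.74) and with Egfr (r = 0.55) over the same deviations, and library 16 had a score of 3.54 where the other WT libraries of day 12 had -2.88 to -1.84. The score was not level over the groups compared, with medians of -0.90, 0.42, -2.12, and 1.27 in WT and of -1.42, 1.24, 0.69, and 1.88 in HNKO at days 3, 6, 12, and 21. With the score in the fit, Egfr at day 12 was 0.18 (adjusted p = 0.669), and it stayed called at days 6 and 21 (1.12 and 1.25). Egfr and Btc kept r = -0.56 after this score was taken out of both, -0.62 after the summed hepatocyte markers were, and -0.62 after the cholangiocyte markers were. Met was the gene most closely tied to the cholangiocyte markers, with r = -0.76, and Hbegf to the hepatocyte markers, with r = -0.62. Egfr had r = -0.59 with the cholangiocyte markers, Btc had r = -0.57 with the hepatocyte markers, and Met had r = 0.55 with the clock score. With the clock score in the fit, an alternative chosen after the data were seen, Btc was called at day 6 (log2 fold change 0.77, adjusted p = 0.0152) and day 12 (1.11, adjusted p = 5.47e-04), and not at day 3 (0.67, adjusted p = 0.0505) or day 21 (0.70, adjusted p = 0.0665). That fit called more genes in general, 16.2% of all genes tested at day 6 and 3854 genes at day 12, against 12.8% and 1588 genes without the score.

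**Figure D4:**
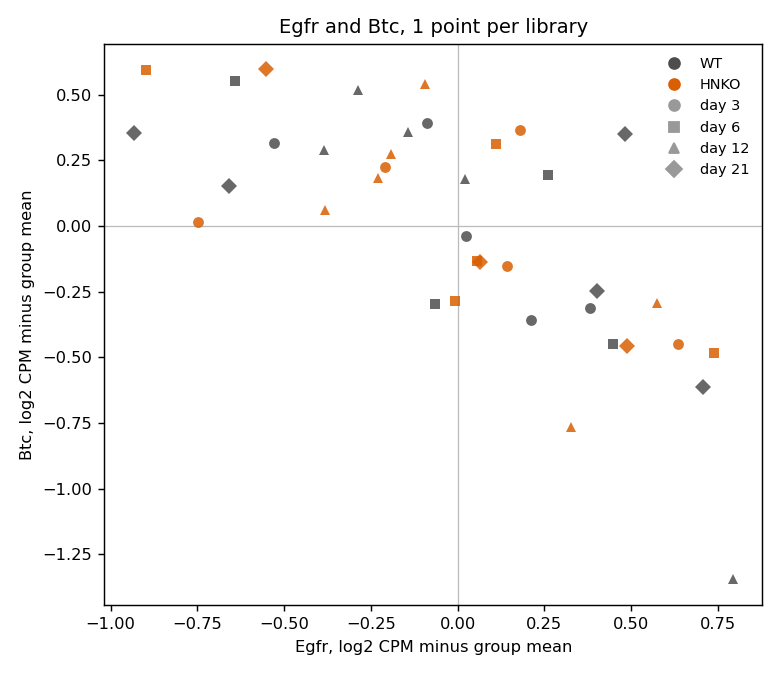
Deviation of each of the 38 libraries from the mean of its group for Egfr (x axis) and Btc (y axis), both in log2 CPM, with genotype as color and day as symbol. The points fall from upper left to lower right (r = -0.72), and the lowest point is WT library 16.

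To see which other transcripts deviate as these genes do, each was compared with 14567 protein-coding genes over the same 38 deviations. For Met, the closest were Ppm1k (r = 0.88), a phosphatase of branched-chain amino acid breakdown, Abcg5 (r = 0.86), a sterol transporter, and Aldh6a1 (r = 0.86), and for Egfr they were Gspt1 (r = 0.79), Zfp91 (r = 0.78), and Fetub (r = 0.76). For Hgf they were Rnf19a (r = 0.72), Rassf1 (r = 0.65), and Ngfr (r = 0.64), the last of which is also a stellate cell marker. Btc was closest to Gas7 (r = 0.85), Dtx4 (r = 0.80), and Spg21 (r = 0.80), and Hbegf to Spn (r = 0.81), Egr2 (r = 0.79), and Otud7b (r = 0.78). Spn encodes CD43 of leukocytes. Tgfa was closest to Adamts1 (r = 0.78), Ets2 (r = 0.76), and Lrp10 (r = 0.74), Erbb3 to Stard13 (r = 0.77), Cdc14b (r = 0.74), and Dixdc1 (r = 0.70), and Ereg to Ccdc68 (r = 0.70), Cldn23 (r = 0.68), and Ubtd2 (r = 0.65). Erbb2 was closest to Ano1 (r = 0.86), Lamb1 (r = 0.81), and Gcnt3 (r = 0.80), values that fell to 0.66, 0.60, and 0.57 without library 35. These are descriptions over libraries that share their groups and their normalization, and which cells made the transcripts was not tested.

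Genes that process the ligands or act beside the receptors were followed by 5 lists. Of 13 tested genes for proteases that activate pro-HGF and their inhibitors, 3, 5, 5, and 2 were called higher and 0, 1, 1, and 1 lower at days 3, 6, 12, and 21. Of all genes tested, 2.95%, 8.42%, 4.56%, and 2.21% were called higher and 1.71%, 4.37%, 3.27%, and 0.916% lower at these days. St14 (matriptase, an epithelial protease that cleaves pro-HGF) rose at all 4 days, with a mean log2 fold change of 1.83 (SE 0.21, adjusted p = 4.18e-08). Plat (tissue plasminogen activator) also rose at all 4 days (mean 2.36, adjusted p = 3.01e-07), Spint1, the inhibitor of both matriptase and HGF activator, rose at days 3, 6, and 12 (mean 1.80, adjusted p = 6.77e-08), and Plaur, the urokinase receptor, rose at days 6 and 12 (mean 1.39, adjusted p = 4.92e-07). Hgfac, the HGF activator that hepatocytes secrete, fell at days 6, 12, and 21 (mean -0.47, SE 0.07, adjusted p = 5e-06). In the mean of the days, 5 of the 13 were called higher and 5 lower (19.2% and 17.3% of all genes tested). The lower ones were Hgfac, Hpn, Plg, F2, and Klkb1, of which Plg and Klkb1 were not called without library 29 or without library 37, and F12, another serine protease that hepatocytes make, was not called (-0.06, adjusted p = 0.373). The median of the 13 was 0.08, 0.21, 0.07, and -0.03 at the 4 days, beside 0.01, -0.01, 0.00, and -0.01 for all genes tested. St14 and Spint1 are also expressed in bile duct epithelium, and the cholangiocyte markers were higher in HNKO too. The part of bile duct cells in these differences was not tested.

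Of 10 genes for partners and adaptors of MET, 2 were called at day 6 and 2 at day 12, all higher (8.42% and 4.56% of all genes tested). Cd44, a coreceptor of MET, rose at both days (mean 0.83, SE 0.12, adjusted p = 2.08e-06). In the mean of the days 4 of 10 rose and none fell, beside 19.2% and 17.3% of all genes tested. The 4 were Cd44, Cbl (0.38), Plxnb1 (0.26), and Dcn (0.23), and whether MET signaling changed was not tested. Of the other EGF family ligands and receptor, 4 of 7 were tested. Nrg1, a ligand of ERBB3 and ERBB4, rose at all 4 days, with a mean log2 fold change of 2.21 (SE 0.28, adjusted p = 2.74e-07), and was the member of this list with the largest difference. Erbb4, the fourth receptor of the family, fell at day 6 (-1.03, adjusted p = 0.0301), where 4.37% of all genes tested were called lower. It also fell in the mean of the days (-0.67, adjusted p = 0.00102), where 17.3% were called lower. Egf and Nrg4 were not called at any day. Of 10 genes for shedding of EGF ligands and feedback on EGFR, 1, 4, 2, and 1 were called, all higher, where 2.95%, 8.42%, 4.56%, and 2.21% of all genes tested were. In the mean of the days 4 of 10 rose and 1 fell, Lrig3 (-0.29, adjusted p = 5.89e-04), a member of the LRIG family. The calls at single days included Rhbdf1, a pseudoprotease partner of ADAM17, at days 3, 6, and 12 (mean 0.62, adjusted p = 3.49e-06), Rhbdf2 at days 6 and 12 (mean 0.37), and Socs5 at days 6 and 21 (mean 0.39), whereas Adam17 itself was not called (mean 0.11, adjusted p = 0.0731). Of 16 tested transcripts induced through ERK signaling, 1, 2, 1, and 0 were called higher and 0, 1, 0, and 0 lower, counts near the shares of all genes tested given above. Ier3, an early response gene, rose at days 6 and 12 (mean 1.5, SE 0.22, adjusted p = 2.74e-06). Dusp6, a phosphatase of ERK, fell at day 6 (-0.73, adjusted p = 0.0401), and in the mean of the days 5 of 16 rose and 2 fell, Dusp6 and Spry4, where 36.4% of all genes tested were called. Across the 5 lists, 9 of 17 calls of day 6 were lost without library 29, among them Hgfac, Nrg1, Erbb4, Rhbdf1, Rhbdf2, Socs5, and Dusp6. All 5 calls of day 21 (St14, Plat, Nrg1, Hgfac, and Socs5) were lost without library 37, where St14 was at 1.71, Plat at 1.82, and Nrg1 at 1.54 (adjusted p of 0.243, 0.445, and 0.484). Of the 28 calls in the mean of the days, 24 held without library 29 and 23 without library 37. Plg, Klkb1, Spry4, and Spred3 were lost in both, and Etv5 was lost without library 37. Spred3 and Etv5 were among the 5 ERK transcripts counted as higher.

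**Figure D5:**
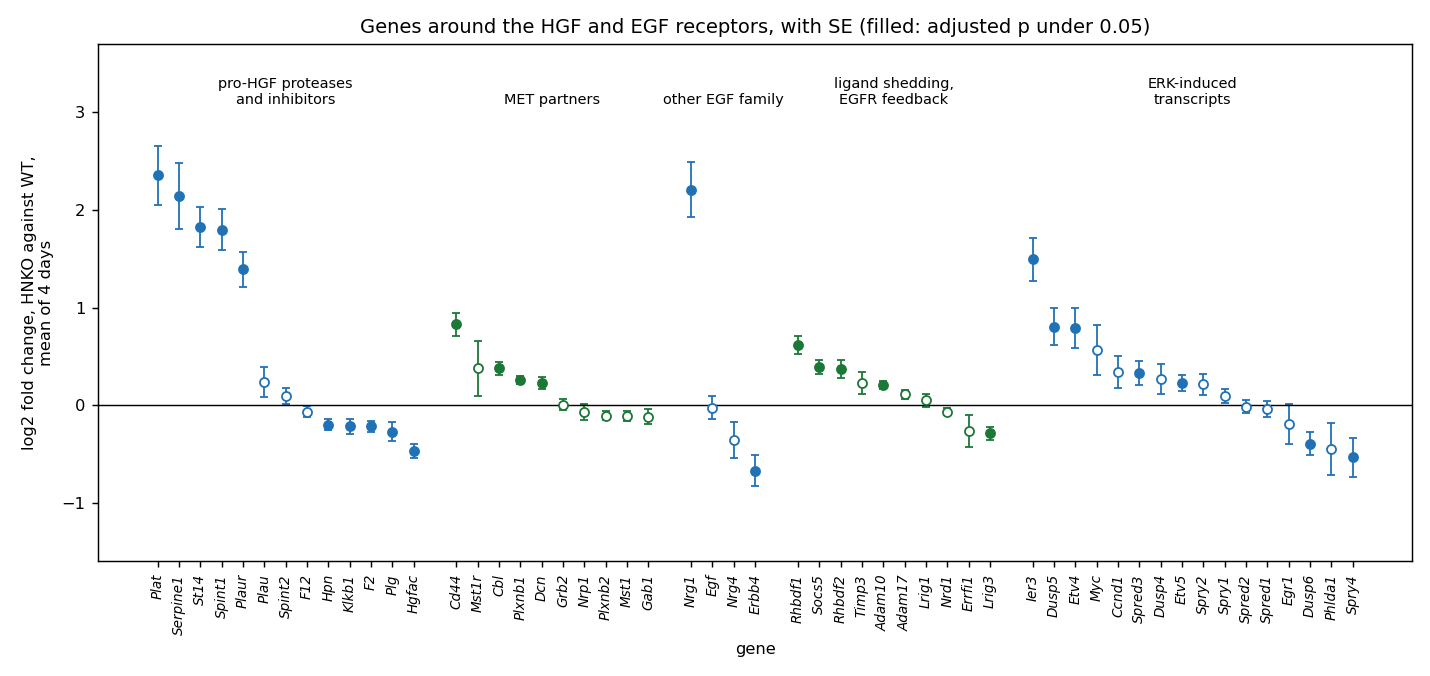
Mean over the 4 days of the log2 fold change of HNKO against WT (y axis), with SE, for the tested genes (x axis) of the 5 lists; filled symbols are called. The pro-HGF list splits into 5 genes called above 0 and 5 called genes below 0, and Nrg1 stands at 2.21 in its list.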

How the data were processed

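RNA was taken from whole liver of female HNKO and WT littermates after PD feeding, in 8 groups of genotype and day. The authors depleted ribosomal RNA, made stranded total RNA libraries (Illumina TruSeq), sequenced 51-base read pairs, aligned them with STAR 2.7.2b to GRCm38 and a GENCODE annotation, and counted reads per gene with featureCounts 1.6.4; the strand setting is not given in the sources used here. The deposited values are raw counts per gene, not normalized. The group of each library came from its title and its quality note from its description. Libraries are numbered singly and were taken as 1 mouse each, so p-values measure the spread between libraries. No 2 libraries of a group agreed within sampling noise.

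Of 55487 genes, 20297 passed edgeR's filterByExpr (minimum count 10, total 15, proportion 0.7). edgeR 4.0.16 was used under R 4.3.3, with TMM normalization, 1 mean per genotype and day fitted over 38 libraries, the quasi-likelihood F-test, and Benjamini-Hochberg adjustment; the SE is the log2 fold change divided by the square root of F. Log2 CPM used a prior count of 2. Correlations used 100000 permutations within groups. Exon lengths and overlaps came from GENCODE M21. The tests were tested on simulated counts. All 10 genes are named; from each pathway list up to 5 genes called at 2 or more days are named by the smallest p of the mean difference, and the 3 protein-coding genes with the highest r are named for each gene. Genes of 5 or fewer that fell outside this rule were chosen after their values were seen. The genes and lists were chosen with earlier results of these data known. Alternatives were DESeq2 1.42.0 and its size factors, no filter, all 40 libraries, 2 groups only, the run of library numbers or a clock gene score as covariate, the current edgeR computation, and each library left out.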

Additional observations from a re-analysis of the deposited data

Results flagged for a closer look

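In 5 of 63 groups of 4 to 10 libraries, 1 library stood far from the rest by Dixon's test at the 95% level, where chance alone gives about 1 in 20. Hgf in HNKO at day 3 was highest in library 23, at 6.14 log2 CPM beside 5.74 in the next library. Met in HNKO at day 6 was lowest in library 29, at 6.92 beside 7.47. Erbb2 in HNKO at day 12 was highest in library 35, at 3.69 beside 2.03. Tgfa in HNKO at day 3 was lowest in library 4, at 4.23 beside 4.66. Btc in WT at day 12 was lowest in library 16, at 0.23 beside 1.75.

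The 2 HNKO libraries of day 21 left out for quality held values above all WT libraries of that day for genes called there. Egfr stood at 9.28 log2 CPM in library 17 and 8.99 in library 18, where the highest WT library had 8.66. Hgf in library 18 stood at 5.79, where the highest WT library had 5.61, and Ereg in library 18 stood at 0.16, where the highest WT library had -0.73. In library 17, Hgf was at 4.70 log2 CPM and Ereg had 0 counts, at a depth of 12287423 counts.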

How the results depend on the processing

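No paired analysis was possible because every library has its own number and no groups share one. Of the calls of the 9 genes in the mean of the days, none changed under any of these alternatives except that Met was lost without HNKO library 37. The scaling by DESeq2 size factors and the current edgeR computation changed no call of the 9 genes, and the genotype by day interaction called none of them in any fit. The test with 2 groups only could give no mean, interaction, or day effect, and DESeq2 was not run for interaction and day effects.

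The counts at single days depended on the fit. At day 3, 1 of 9 was called in the fit given, 2 with DESeq2, and 0 with only the 2 groups of the day. At day 6, 3 were called, against 1 each with no filter, with all 40 libraries, and with the 2 groups, and 4 with the clock score. At day 12, 2 were called, against 1 each with no filter, with the run of library numbers as covariate, and with the 2 groups, and 0 with all 40, and 3 each with DESeq2 and with the clock score, Btc being added. At day 21, 3 were called, against 1 with all 40 and 2 with the 2 groups. The day effect in HNKO was called for 0 genes, and for 2 with the clock score (Egfr and Erbb3). Leaving out 1 library at a time gave 0 to 4, 0 to 3, 1 to 3, and 0 to 2 calls at days 3, 6, 12, and 21, and 7 to 8 in the mean.

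Over all genes tested, DESeq2 called 1428 at day 3 and 994 at day 21. All 40 libraries gave 331, 1321, 624, and 1350 calls at the 4 days, and the 2 groups gave 420, 1325, and 867 at days 3, 6, and 12. The clock score gave 3854 calls at day 12 and 1166 at day 21. Leaving out 1 library gave 322 to 1668, 1126 to 3027, 852 to 1750, and 13 to 718 calls, the 13 without library 37.

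Differences that changed sign were not called in any fit. Erbb2 at day 21 was -0.068 with the run of numbers as covariate, and Tgfa at day 21 was 0.21 with all 40 libraries and -0.15 to 0.071 over the left-out libraries. Egfr at day 3 ranged from -0.016 to 0.33, below 0 without library 22, and Met at day 6 from -0.14 to 0.047, above 0 without library 29. The cause of these changes was not tested.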
